A study of Sus scrofa with 28 samples.

Results

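Vesicle traffic and motor protein genes were measured with 67 probe sets of 58 genes, out of the 5226 probe sets of the expression table, in the loin muscle of Iberian (IB) and Duroc × Iberian (DU×IB) piglets. The members were taken by gene symbol and not by expression level. The symbols begin with SNX, VPS, STX, VAMP, TMED, CHMP, EXOC, DYNC, DYNL, DCTN or TRAPP, with SEC and the digits of the COPII and SNARE proteins, with COP and a letter, with RAB, ARF or ARL and a digit, with an adaptor name such as AP1 or AP2, or with SNAP, NSF or VAPA, and PDCD6IP was added. Of the 67 probe sets, 4 came in by these letters although their proteins act elsewhere. They belong to COPS2 (2 probe sets) and COPS7A, subunits of the COP9 signalosome, and to SNAPC5, a subunit of the complex that activates small nuclear RNA genes. Each measured level is a log2 value of one probe set on one array, and a gap in level between probe sets is not read as a gap in transcript amount.

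Samples of Longissimus dorsi were from 28 male piglets at weaning, at 28 days of age, 14 IB and 14 DU×IB, an array for each piglet and no treatment. All piglets had Iberian dams that nursed them until slaughter, and the sire was Iberian for IB and Duroc for DU×IB, so the comparison asks which transcript levels go with the Duroc sire. The crossbred piglets came from fewer litters than the purebred ones, and the labels do not tie piglets to litters, so the p-values treat littermates as independent. Array medians ran from 6.01 to 7.02 in IB and from 6.24 to 7.05 in DU×IB. Precision is limited by how many arrays and litters there are, and the 14 piglets of a genetic type are not 14 independent litters. IB replicate 3 stood apart, with the lowest array median and a mean correlation of 0.865 with the arrays of its series, beside 0.883 to 0.947 for the other piglets. The table holds only probe sets that varied between the arrays, so traffic genes with steady levels are not analysed here, and 4 members (RAB24, SEC22C, DYNLT3 and the first probe set of SNX14) had a mean under 4 in both genetic types, near the low end of the scale.

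Material moves between the compartments of a cell in small vesicles. Coat proteins bend the membrane and gather cargo, small GTPases of the ARF and RAB families mark which membrane is which, tethers catch the arriving vesicle and SNARE proteins fuse it with its target. Endosomes sort what was taken up, with sorting nexins and retromer returning cargo and the ESCRT machinery pinching off inner vesicles, and the dynein motor with its activator dynactin carries vesicles along microtubules. In skeletal muscle this traffic supplies the plasma membrane with transporters such as GLUT4 and exports the proteins of the extracellular matrix.

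The genetic types differed in 4 of the 67 members in the comparison of all 28 piglets. DYNC1LI2 and COPZ2 were higher in DU×IB, and DYNC1I2 and PDCD6IP were higher in IB (limma, adjusted p under 0.10 over all 5226 probe sets). These are 2 members in each direction, 2.99% of the members each, beside 0.765% of all probe sets called higher in DU×IB and 0.23% called higher in IB. With the hybridization series as a block (the arrays were run in series of 16 and 12), SNX10 was called higher in IB as well. The counts were then 2 members higher in DU×IB (2.99%, beside 2.07% of all probe sets) and 3 higher in IB (4.48%, beside 0.708%). Without IB replicate 3 the adjusted p-values without the block were 0.0623 for DYNC1LI2, 0.0428 for DYNC1I2, 0.0874 for PDCD6IP, 0.134 for COPZ2 and 0.128 for SNX10. The median log2 difference, DU×IB minus IB, was -0.025 over the members and 0.016 over all probe sets.

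The number of members called needs another background, because a gene symbol is a condition of membership and the study's list of differential probe sets is one source of symbols. All 52 probe sets called here, and all 145 called with the series as a block, are among the 271 of that list, which was chosen on these same samples. Among the 2528 probe sets with a gene name, 2.06% were called, and 5.74% with the series as a block, beside 5.97% and 7.46% of the members. The list holds 9 members (13.4%, beside 10.7% of the probe sets with a gene name). Of these 9, 3 have their symbol from that list alone, PDCD6IP and STXBP3 included. Without these 3, 3 of 64 members were called (4.69%), and 4 with the series as a block (6.25%). The 2.06% and 5.74% above still include probe sets named by that list alone, so they are not a like background. Unadjusted p-values under 0.05 were found for 7 members (10.4%, beside 8.5% of all probe sets), and for 9 with the series as a block (13.4%, beside 13.8%). Outside the study's list, 0 of 58 members had such a p-value in limma either way, beside 4.56% of all probe sets outside the list, and 9.14% with the series as a block.

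**Figure D1:**
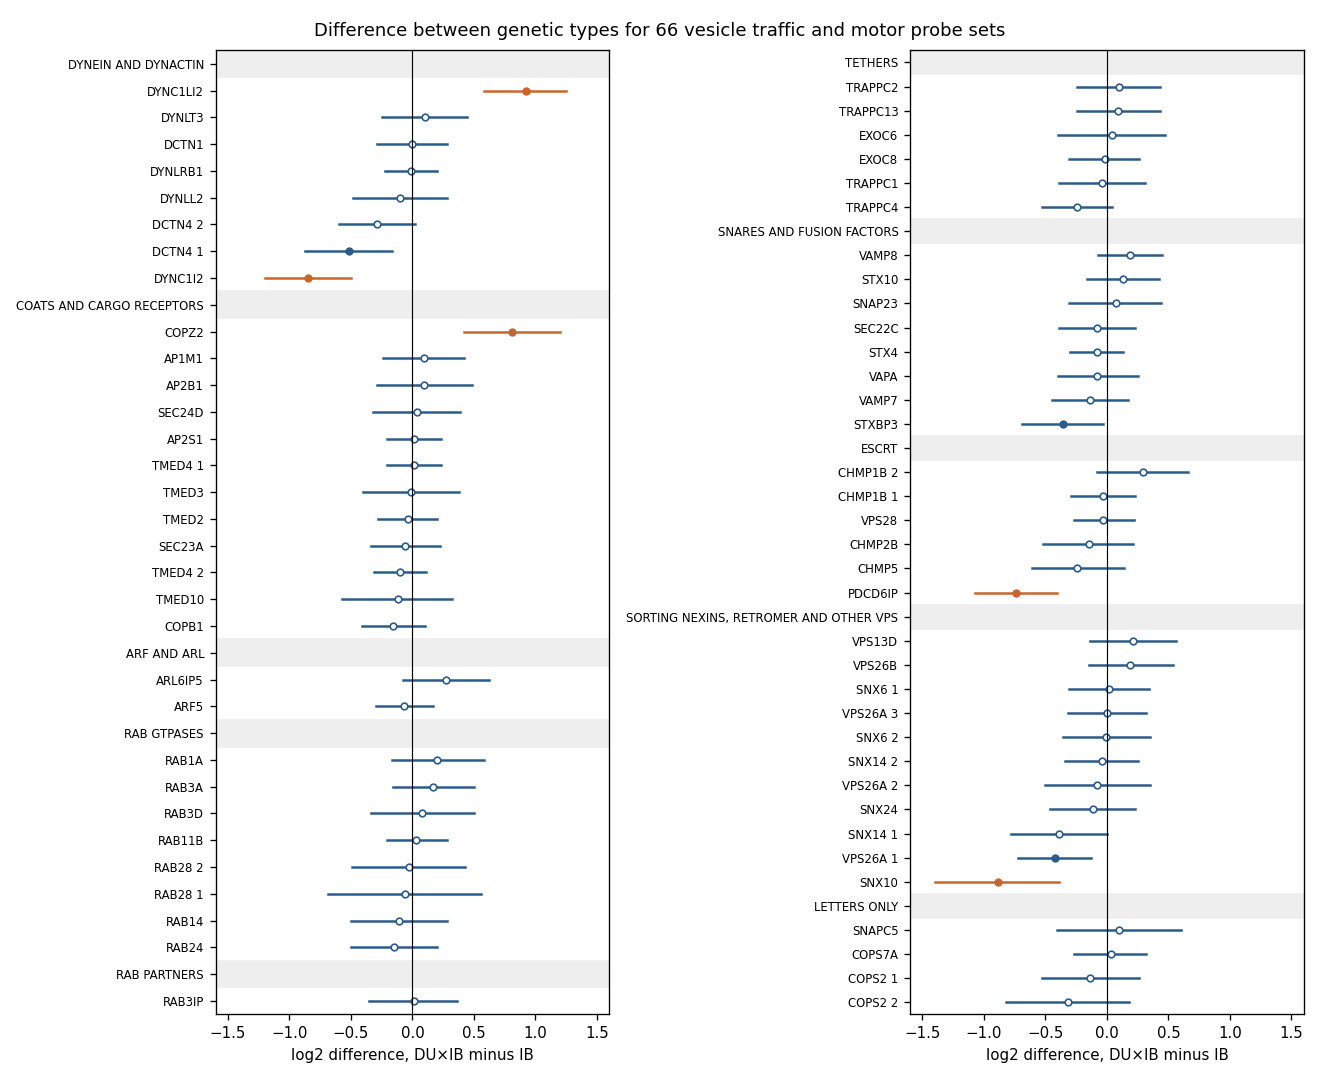
Log2 difference, DU×IB minus IB (horizontal axis), for 66 of the 67 probe sets by role, with its 95% confidence interval from limma with the series as a block; filled points are 8 members of the study's list, orange marks the 5 members with an adjusted p under 0.10, and a digit after a symbol is the number of the probe set. The 5 orange members lie between 0.81 and 0.92 or between -0.89 and -0.74, and the 58 open points lie between -0.39 and 0.29.

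Dynein and dynactin gave a member in each direction. The dynein motor is built of heavy chains that walk and of intermediate, light intermediate and light chains that hold cargo and dynactin. DYNC1LI2, a light intermediate chain that links dynein to its cargo adaptors, ran from 6.16 to 8.41 in IB (median 7.43) and from 7.60 to 9.04 in DU×IB (median 8.34). All 14 DU×IB piglets lay above the IB median, although the ranges overlapped. The level was 7.42 ± 0.68 in IB and 8.33 ± 0.43 in DU×IB (SD, n = 14 each), a log2 difference of 0.92 (SE 0.22, 1.89-fold, limma adjusted p of 0.0374, and 0.00136 with the series as a block). DYNC1I2, an intermediate chain that binds dynactin, went the other way. It ran from 5.35 to 7.51 in IB (median 6.50) and from 4.81 to 6.44 in DU×IB (median 5.59), and all 14 crossbred piglets were lower than the median IB piglet. The level was 6.46 ± 0.58 in IB and 5.62 ± 0.49 in DU×IB (SD, n = 14 each), a log2 difference of -0.85 (SE 0.21, 1.80-fold higher in IB, limma adjusted p of 0.0505, and 0.00583 with the series as a block).

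The levels of these subunits showed no clear relation from piglet to piglet. Once the mean of each genetic type in each series was taken out, the levels of DYNC1I2 and DYNC1LI2 correlated over the 28 piglets with r = -0.07 and rho = 0.11 (permutation p of 0.755 and 0.613). In the series of 16 and of 12 r was -0.19 and 0.20, and so few piglets do not exclude a moderate relation. Dynactin is the activator that ties dynein to vesicles, and its subunit DCTN4 had 2 probe sets. The first ran from 5.92 to 8.23 in IB (median 7.12) and from 6.01 to 7.18 in DU×IB (median 6.53), and 12 of the 14 crossbred piglets were lower than the median IB piglet. Its log2 difference was -0.52 (SE 0.20), with an adjusted p of 0.374 and of 0.127 with the series as a block, and that of the second probe set was -0.29 (SE 0.21, adjusted p of 0.897 and 0.407). Neither passed the threshold here, although the first is in the study's list of differential probe sets. For DCTN1, the large subunit of dynactin, and the dynein light chains DYNLRB1, DYNLL2 and DYNLT3, the log2 differences lay between -0.10 and 0.10. DYNLRB1 was at 10.14 in both genetic types, with a 95% interval of the difference from -0.22 to 0.20 with the series as a block.

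**Figure D2:**
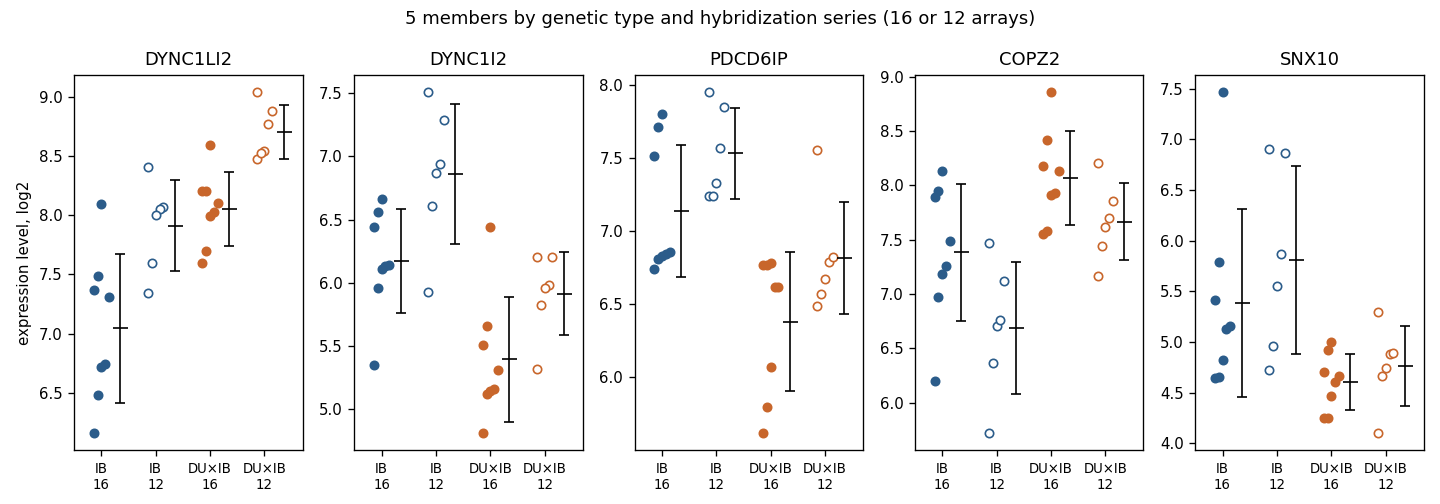
Log2 expression level (vertical axis) of the 5 members called in limma with or without the series as a block, by genetic type and hybridization series (horizontal axis; 8 IB and 8 DU×IB arrays in the series of 16, filled, and 6 and 6 in the series of 12, open); each point is a piglet and the bars are mean and SD. In each of the 5 genes the difference between IB and DU×IB has the same sign in both series.

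Among the 12 probe sets of coats and cargo receptors, COPZ2 alone was called. COPZ2, a zeta subunit of the COPI coat that carries cargo from the Golgi back to the endoplasmic reticulum, ran from 5.72 to 8.13 in IB (median 7.15) and from 7.17 to 8.86 in DU×IB (median 7.89). All 14 DU×IB piglets lay above the IB median, and the ranges overlapped. Its level was 7.09 ± 0.69 in IB and 7.90 ± 0.44 in DU×IB (SD, n = 14 each), a log2 difference of 0.81 (SE 0.22, 1.75-fold). The limma adjusted p was 0.0977, and it passed the threshold in only 7 of the 28 fits that left out a piglet, rising to 0.192 without DU×IB replicate 7. With the series as a block the adjusted p was 0.0232, and stayed between 0.0105 and 0.0451 when each piglet was left out in turn. The other COPI subunit measured, COPB1, had a log2 difference of -0.16 (SE 0.17). Its level was near the low end of the scale, at 4.03 in IB and 3.88 in DU×IB.

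The other 11 probe sets of this group differed by at most 0.16 in size. They cover the COPII coat that leaves the endoplasmic reticulum (SEC23A and SEC24D), the adaptors of clathrin coats (AP1M1, AP2B1 and AP2S1) and the p24 family of cargo receptors (TMED2, TMED3, TMED4 and TMED10), and their log2 differences lay between -0.16 and 0.09. TMED2 was at 11.61 ± 0.55 in IB and 11.57 ± 0.39 in DU×IB (SD, n = 14 each), with an interval of the difference from -0.28 to 0.20 with the series as a block. For AP2S1, the small subunit of the endocytic adaptor, that interval ran from -0.21 to 0.23. In 10 of these 11 probe sets the whole interval lay within 0.50 of 0 on the log2 scale. Over all probe sets it was 1998 of 5226.

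Of the ARF and ARL members, ARL6IP5, a membrane protein of the endoplasmic reticulum named for its ARL partner, had a difference of 0.27 (SE 0.20), and ARF5, a GTPase that recruits coats at the Golgi, of -0.07 (SE 0.20). Neither of these had an adjusted p under 0.10.

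None of the 8 RAB probe sets was called, and the unadjusted p was above 0.05 for all of them both without and with the series as a block. The RAB GTPases are the address labels of membranes, and the 7 genes measured cover the route from the endoplasmic reticulum to the Golgi (RAB1A), recycling endosomes (RAB11B and RAB14), regulated secretion (RAB3A and RAB3D), autophagy (RAB24) and the cilium (RAB28). RAB1A was at 9.42 ± 0.81 in IB and 9.62 ± 0.60 in DU×IB (SD, n = 14 each), the largest difference of the group at 0.20 (SE 0.26, adjusted p of 0.998). RAB24 was near the low end of the scale, at 3.69 and 3.54. RAB3A had a difference of 0.17 (SE 0.22), and RAB3IP, an exchange factor of RAB GTPases, one of 0.01 (SE 0.32). With the series as a block, the interval of the difference lay within 0.50 of 0 in 3 of the 8 RAB probe sets, beside 1998 of all 5226. In all 8 it lay within 1 of 0, beside 4698 of 5226.

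The 6 tether genes gave no call. TRAPPC4, a core subunit of the TRAPP complexes that tether vesicles at the Golgi, was at 7.35 ± 0.38 in IB and 7.10 ± 0.35 in DU×IB (SD, n = 14 each), and 12 of 14 crossbred piglets were lower than the IB median. Its log2 difference was -0.24 (SE 0.16, adjusted p of 0.872, and 0.481 with the series as a block). TRAPPC2 and TRAPPC13, further TRAPP subunits, differed by 0.10 and 0.09. EXOC8, a subunit of the exocyst that docks vesicles at the plasma membrane, differed by -0.02 (SE 0.19). The probe set of TRAPPC2 carries the name of a zinc finger gene, ZNF547, in the study's list of regulatory factors, so its identity is uncertain.

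Among 8 SNAREs and fusion factors, the largest difference was that of STXBP3, also called Munc18c, which binds syntaxin 4 in the docking of GLUT4 vesicles. It ran from 6.73 to 9.03 in IB (median 7.57) and from 6.32 to 7.97 in DU×IB (median 7.35). The groups overlapped, with 10 of 14 crossbred piglets lower than the median of IB. The log2 difference was -0.36 (SE 0.22), with an adjusted p of 0.768, and 0.311 with the series as a block. The symbol of this probe set comes only from the study's list, chosen on this same contrast. Its rank in the group and its gap to the other members are therefore largely fixed by selection. The partners of STXBP3 in that docking step were measured too. STX4, the syntaxin of the plasma membrane, was at 6.83 ± 0.61 in IB and 6.75 ± 0.48 in DU×IB, and SNAP23 was at 9.16 ± 0.90 and 9.22 ± 0.72 (SD, n = 14 each). The intervals of the difference ran from -0.30 to 0.13 for STX4 and from -0.31 to 0.44 for SNAP23, with the series as a block. The vesicle SNAREs of late endosomes and lysosomes, VAMP7 and VAMP8, differed by -0.14 and 0.19 (SE 0.20 each). VAPA, a membrane protein of the endoplasmic reticulum that binds SNAREs, differed by -0.08, and its probe set is named CBFB in the study's list of factors.

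In the ESCRT group PDCD6IP alone was called. PDCD6IP, also known as ALIX, is an adaptor that brings ESCRT-III to sites of membrane scission and repair. It ran from 6.74 to 7.95 in IB (median 7.29) and from 5.62 to 7.55 in DU×IB (median 6.64). A single DU×IB piglet, replicate 14, lay above the IB median, and the other 13 lay below it. The level was 7.31 ± 0.43 in IB and 6.57 ± 0.48 in DU×IB (SD, n = 14 each), a log2 difference of -0.74 (SE 0.19, 1.67-fold higher in IB, limma adjusted p of 0.0576, and 0.0107 with the series as a block). The symbol of this probe set comes only from the study's list, so its place among the members depended on this same contrast.

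The probe sets of proteins that PDCD6IP works with, all outside the study's list, differed less. As PDCD6IP is a member only through that list, chosen on this same contrast, that gap is largely fixed by selection. CHMP5, an ESCRT-III protein, was under the median of IB in 13 of the 14 crossbred piglets, but the IB levels reached from 8.26 to 11.03, and the difference of the means was -0.24 (SE 0.25, adjusted p of 0.998). VPS28 of ESCRT-I differed by -0.03 (SE 0.23). CHMP2B differed by -0.15 (SE 0.28). CHMP1B had 2 probe sets, with differences of -0.03 and 0.29 (SE 0.20 and 0.21), and none of these values passed the threshold.

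Among the sorting nexins, retromer and other VPS proteins, 8 of 11 probe sets (7 genes) had a higher mean in IB. Over all probe sets it was 2480 of 5226. Outside the study's list it was 6 of 9 in this group, with a median log2 difference of -0.005. The call in this group depended on whether the series was a block. SNX10, a sorting nexin of endosomes that is known for its role in osteoclasts, ran from 4.64 to 7.47 in IB (median 5.28) and from 4.10 to 5.30 in DU×IB (median 4.68). The IB piglets were more spread, and 13 of 14 crossbred piglets were under the IB median. The level was 5.57 ± 0.92 in IB and 4.67 ± 0.33 in DU×IB (SD, n = 14 each), a log2 difference of -0.89 (SE 0.26, 1.86-fold higher in IB). The limma adjusted p was 0.126, and 0.0611 with the series as a block. With the block it passed the threshold in 26 of the 28 fits that left out a piglet, and was 0.111 at most, without IB replicate 12.

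Retromer returns cargo from endosomes to the Golgi and the cell surface, and its subunit VPS26A had 3 probe sets. The first ran from 3.64 to 5.20 in IB (median 4.23) and from 3.25 to 4.81 in DU×IB (median 3.83). Its log2 difference was -0.42 (SE 0.19, adjusted p of 0.515, or 0.15 in the fit with series as a block). It did not pass the threshold here, although it is in the study's list of differential probe sets. The second and the third had higher signals and differences of -0.08 (SE 0.34) and -0.00 (SE 0.26). VPS26B, the sister subunit, differed by 0.19 (SE 0.25), and VPS13D, a lipid transfer protein, by 0.21 (SE 0.22). SNX6, a sorting nexin of the retromer coat, had differences of 0.02 and -0.01 in its 2 probe sets. SNX14, a sorting nexin that sits where the endoplasmic reticulum meets lipid droplets, also had 2, and the dim one, at 3.41 and 3.03, differed by -0.39 (SE 0.25, adjusted p of 0.801, and 0.37 with the series as a block) while the brighter one differed by -0.04 (SE 0.23).

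The 4 probe sets that came in by their letters were not called either. COPS2, at 10.99 and 10.86 with its first probe set and at 9.44 and 9.12 with its second, had differences of -0.14 (SE 0.28) and -0.32 (SE 0.32). SNAPC5 differed by 0.10 (SE 0.35) and COPS7A by 0.03 (SE 0.24). Leaving these 4 out, the median difference over the 63 other members was -0.025, as with all 67.

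Genes with several probe sets show how far a value rests on the probe set. In 7 of the pairs the levels followed each other closely over the 28 piglets, once the mean of each genetic type in each series was taken out, with r = 0.96 for RAB28, 0.89 for TMED4, 0.89 for probe sets 2 and 3 of VPS26A, 0.88 for COPS2, 0.81 for SNX6, 0.77 for DCTN4 and 0.76 for CHMP1B. Spearman's rho lay between 0.74 and 0.92 in these 7 pairs, r without the 2 farthest piglets between 0.67 and 0.96, and the permutation p adjusted over 30 correlations was 0.000412 at most. The first probe set of VPS26A followed the others less (r = 0.28 and 0.31, rho of 0.39 and 0.38, adjusted p of 0.12 and 0.116 for r and of 0.0728 and 0.0793 for rho), and r was 0.56 and 0.46 in the series of 12. The probe sets of SNX14 gave r = 0.26 and rho = 0.18 (adjusted p of 0.202 and 0.537), with r = 0.07 in the series of 16 and 0.58 in the series of 12. In both genes the first probe set had the lower mean, 4.11 for VPS26A and 3.22 for SNX14, and the larger difference between genetic types.

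**Figure D3:**
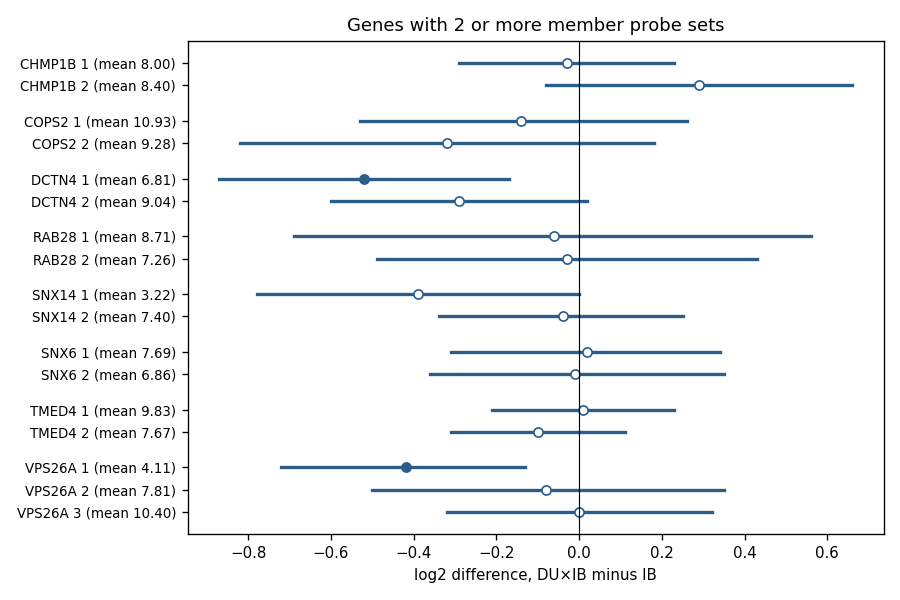
Log2 difference, DU×IB minus IB (horizontal axis), with the 95% confidence interval from limma with the series as a block, for the 17 probe sets of the 8 genes with more than 1; the mean log2 level over 28 piglets stands beside each name and filled points are in the study's list. The first probe sets of VPS26A and SNX14, at -0.42 and -0.39, lie away from the other probe sets of their genes, at -0.08, -0.00 and -0.04, and have the lowest mean levels.

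The hybridization series moved these genes more than the genetic type did. The labels do not name the series, so it was recovered from 10 bacterial spike-in probe sets, whose mean was at least 8.93 on 16 arrays and at most 7.01 on 12, with 8 and 6 arrays of each genetic type. Of the 67 members, 39 were higher in the series of 12 (58.2%, beside 57.3% of all probe sets) and 22 in the series of 16 (32.8%, beside 22.7%), in limma with genetic type in the model. The series took up a median of 51.2% of the variance of a member (range 2.33 to 84.3), and the genetic type a median of 0.729%, up to 41.4%. The 6 members for which the genetic type took up more than the series were DYNC1LI2, DYNC1I2, PDCD6IP, COPZ2, SNX10 and the first probe set of DCTN4. The largest series differences (series of 12 minus series of 16) were -1.61 for TRAPPC1 and 1.51 for the second probe set of VPS26A, on the log2 scale. As both genetic types were balanced over the series, these shifts enter the error and not the difference between genetic types.

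The 5 called genes had the same direction in both series, which their call on these same arrays largely fixes. DYNC1LI2 differed by 1.01 (SE 0.25) in the series of 16 and by 0.79 (SE 0.19) in the series of 12, and DYNC1I2 by -0.77 (SE 0.23) and -0.95 (SE 0.25). PDCD6IP differed by -0.76 (SE 0.23) and -0.72 (SE 0.20), COPZ2 by 0.69 (SE 0.26) and 0.97 (SE 0.27), and SNX10 by -0.77 (SE 0.32) and -1.05 (SE 0.37). In the series of 16 by itself 0 members had an adjusted p under 0.10 in limma, beside 0.172% of all probe sets. In the series of 12 it was 5 members (7.46%, beside 4.38%), DYNC1LI2, DYNC1I2, PDCD6IP, COPZ2 and the second probe set of COPS2, which differed by -0.83 there and by 0.07 in the series of 16.

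Of all 67 members, 29 (43.3%) had a difference of the same sign in both series, beside 55.6% of all probe sets. Outside the study's list it was 20 of 58 members (34.5%), beside 53.3% of all probe sets outside it. The test of the difference itself, the interaction of genetic type and series, gave 0 members and 0 of all probe sets with an adjusted p under 0.10 in limma. Unadjusted, 2 members (2.99%, beside 6.37% of all probe sets) had a p under 0.05. STXBP3 differed by -0.07 in the series of 16 and by -0.74 in the series of 12 (interaction p of 0.0383, adjusted 0.766), and AP2B1 by 0.42 and -0.35 (interaction p of 0.0408, adjusted 0.766).

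**Figure D4:**
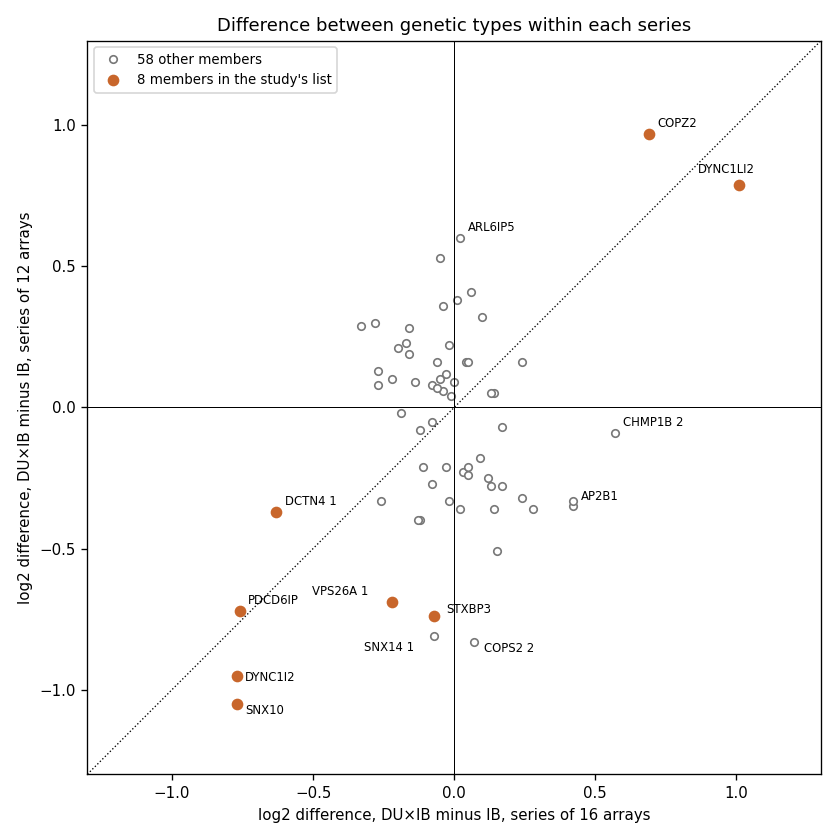
Log2 difference, DU×IB minus IB, in the series of 12 arrays (vertical axis) against that in the series of 16 arrays (horizontal axis) for 66 of the 67 members; the dotted line marks equal differences and orange points are 8 members of the study's list. DYNC1LI2, DYNC1I2, PDCD6IP, COPZ2 and SNX10 lie far from 0 on both axes, and ARL6IP5, COPS2 (second probe set), SNX14 (first), VPS26A (first) and STXBP3 mainly on the vertical axis.

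COPZ2 and SNX10 moved against each other from piglet to piglet. Among the 10 pairs of called genes, after the mean of each genetic type in each series was taken out, only this pair had an adjusted p under 0.10, with r = -0.71 and rho = -0.61 (permutation p of 0.00045 and 0.00164 before adjustment). The values were -0.74 in the series of 16 and -0.68 in the series of 12, and r was -0.51 without the 2 piglets farthest in COPZ2. The lowest COPZ2 levels were those of IB replicates 12 and 1, at 5.72 and 6.20, and the same piglets had the highest SNX10 levels, at 6.91 and 7.47.

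Lists of markers of other cell types were set beside these genes, and the 2 largest of them, matrix and macrophage genes, each had all measured members on the same side. A list of fibroblast and matrix genes had 11 of 17 members measured, all with a higher mean in DU×IB. Of these 11, 5 were called, and 8 with the series as a block. The study's list, which was chosen on these samples, holds 9 of them. Over all probe sets 0.995% were called, and 2.77% with the block. Of the 5226, 2746 had a higher mean in DU×IB and 2480 in IB. The mean of the 11 ran from 6.60 to 9.27 in IB (median 8.23) and from 8.57 to 10.04 in DU×IB (median 9.24). COPZ2 followed this mean with r = 0.87 and rho = 0.84 within genetic type and series (permutation p of 1e-05, the smallest that 100000 permutations can give; adjusted 6e-05), with r = 0.86 without the 2 piglets farthest in the list. SNX10 ran against it, with r = -0.58 (adjusted p of 0.0277) and rho = -0.44 (adjusted 0.0793), at -0.58 and -0.59 in the series of 16 and 12 and at -0.60 without the 2 farthest piglets. A list of macrophage genes had 9 of 18 measured, all with a higher mean in IB and 0 called in limma either way, the median log2 difference being -0.43. The mean of the 9 ran from 5.31 to 7.60 in IB (median 5.57) and from 5.04 to 5.69 in DU×IB (median 5.38), and IB replicates 1 and 12 were the highest at 7.60 and 7.10. SNX10 followed this mean with r = 0.73 (permutation p of 0.00953, adjusted 0.0277) and rho = 0.47 (adjusted 0.0728). Without the 2 piglets farthest in the list r fell to 0.32, so much of this relation rests on them. The relation of COPZ2 with the macrophage mean, at r = -0.55 (adjusted 0.0468) and rho = -0.16 (adjusted 0.591), rests on them more fully. Its r was at 0 once these piglets were left out.

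The other lists were smaller and mixed in direction. Of 4 adipocyte genes measured, 2 had a higher mean in each genetic type (median log2 difference of -0.03), and RBP7, a retinol-binding protein, was called at 1.58 (SE 0.37, limma adjusted p of 0.0309, and 0.0202 with the block). The median difference was 0.19 over 5 endothelial genes and 0.06 over 2 blood cell genes, with 0 called in limma either way. Of 2 nerve genes, MBP differed by -0.02 and MAP1B by 0.65, called only with the block (adjusted p of 0.0854).

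Without IB replicates 1 and 12 the log2 difference of SNX10 was -0.62 in place of -0.89 (adjusted p of 0.338, or 0.119 in the fit with series as a block), and that of COPZ2 was 0.62 in place of 0.81 (0.313, and 0.0592 with the block). In the fit with the block, DYNC1LI2, DYNC1I2 and PDCD6IP changed less, to 0.89, -0.80 and -0.78, with adjusted p-values of 0.00405, 0.0191 and 0.0165. Without the block these were 0.0847, 0.134 and 0.0777, so DYNC1I2 no longer passed the threshold. Of these 3 genes, DYNC1I2 had a rank correlation with the matrix list at an adjusted p under 0.10 (rho = -0.45, adjusted 0.0728; r = -0.41, adjusted 0.116), with r = -0.69 in the series of 16 and -0.17 in the series of 12. DYNC1LI2 and PDCD6IP had none with either list, although r was -0.71 for DYNC1LI2 with the macrophage list in the series of 12 and 0.12 in the series of 16. The part of these cell types in the differences was not tested. In whole muscle, fewer cells of a type and less RNA per cell cannot be told apart. Of 19 skeletal muscle markers only ATP2A1, the calcium pump of fast fibres, is in the table, at 12.29 ± 0.59 in IB and 12.19 ± 0.43 in DU×IB (SD, n = 14 each).

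**Figure D5:**
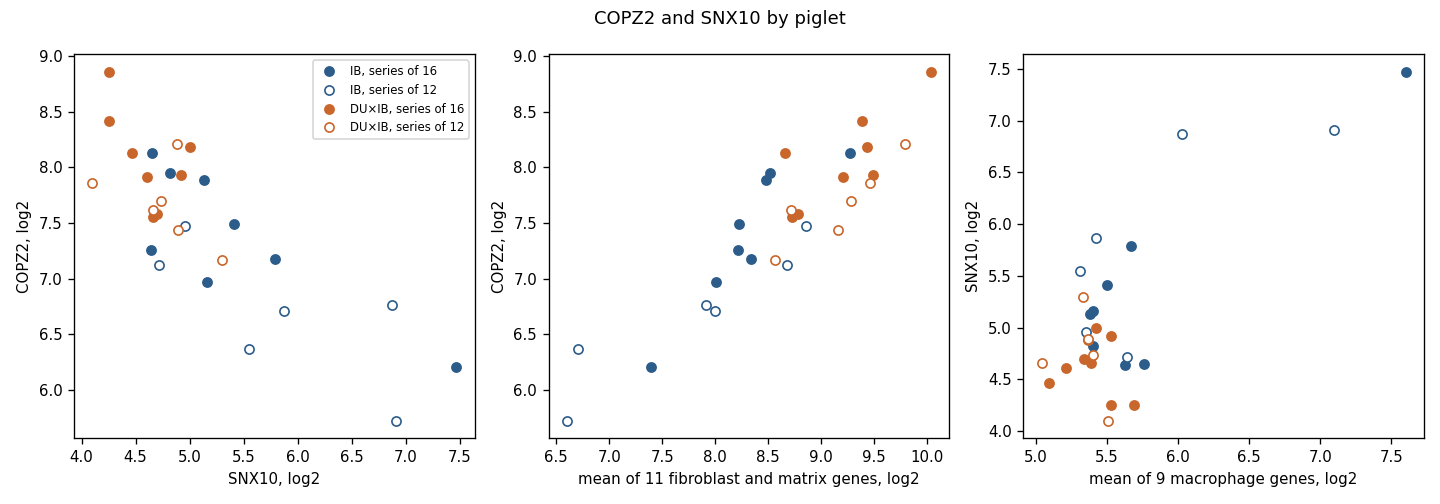
COPZ2 against SNX10 (left), COPZ2 against the mean of the 11 fibroblast and matrix genes (middle) and SNX10 against the mean of the 9 macrophage genes (right), all as log2 levels, with a point for each of the 28 piglets by genetic type and series. COPZ2 falls as SNX10 rises and rises with the matrix mean in both series, and in the right panel IB replicates 1 and 12 stand apart at 7.60 and 7.10.

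Traffic genes with other names were counted from a list of 173, of which 30 were in the table. It holds kinesins, myosins, clathrin, caveolae, Golgi and RAB regulators. Of these, 21 had a higher mean in DU×IB and 9 in IB, and the median log2 difference was 0.11. Over all probe sets, 2746 of 5226 had a higher mean in DU×IB, with a median of 0.016. SORT1, a sorting receptor of the Golgi and endosomes, was the only one called, without and with the series as a block, at a log2 difference of 0.66 (SE 0.16, limma adjusted p of 0.0374 and 0.00926), and it is in the study's list. Over all probe sets 0.995% were called, and 2.77% with the block. Among those with a gene name it was 2.06% and 5.74%. Among partners of dynein, NDEL1 differed by -0.39 (SE 0.22, adjusted p of 0.693) and PAFAH1B1, known as LIS1, by 0.04 (SE 0.21). Caveolin genes CAV1 and CAV2 differed by 0.28 (SE 0.21) and 0.12 (SE 0.37), and TBC1D1, a brake on the RAB proteins of GLUT4 vesicles, by 0.10 (SE 0.24).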

How the data were processed

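Loin muscle RNA of 28 piglets was measured on the Affymetrix porcine genome array. The authors read the images with GCOS (version not given in the sources used here). The deposited log2 values are the authors' GCRMA levels, a method that estimates background from the sequence of each probe, normalizes whole arrays by quantiles and gives each probe set 1 value. The authors kept 5226 probe sets, those in which over 20% of the values were 1.5-fold or more away from the median of the probe set. Array medians of this filtered table still differ.

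From these log2 values, genetic types were compared with limma 3.58.1 in R 4.3.3 (lmFit and eBayes, two-sided, no covariate, all 28 arrays, Benjamini-Hochberg over the whole table, threshold 0.10). The paper's model includes the hybridization series. The labels do not name it, so arrays were split by their spike-in signal, and the split served as a block. Symbols came from the study's list of differential probe sets and otherwise from the annotation of the array, and 63 of the 67 members matched a current gene by its ID, with 0 changed symbols. A single member enters the counts but is not reported here by itself. The members and gene lists were chosen with earlier results of these data known. Genes named in the text are called members, members of the study's list, the 3 members of lowest p and the member of highest mean in each role, and genes with several member probe sets. Other names were chosen after their values were seen. Correlations used levels less the mean of genetic type and series, with 100000 permutations within these cells, two-sided, adjusted over 30. They were computed in Python 3.11.15 with scipy 1.17.1, numpy 2.4.6 and pandas 2.3.3. Percentages of variance are sums of squares of series and of genetic type over the total. The fits were tested on simulated data.

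Alternatives changed the scaling (array medians made equal, or quantiles), the model (replicate number as a block, weights per array, a prior that is trended and robust, a Welch test with Benjamini-Hochberg adjustment), the probe sets (without dim ones, or without those that match several transcripts), the threshold (0.05) and the arrays (each series by itself, each piglet left out). IB replicates 1 and 12 left out, members named only by the study's list left out, and alternatives with the series block were added after seeing the data.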

Additional observations from a re-analysis of the deposited data

How the results depend on the processing

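The 2 members higher in DU×IB became 0 within the series of 16. They became 1 in 7 settings: equal array medians, quantile normalization, the trended and robust prior, single-transcript probe sets, the Welch test, IB replicates 1 and 12 left out, and a threshold of 0.05. The member lost in each of these was COPZ2. The 2 members higher in IB became 0 within the series of 16 and at a threshold of 0.05 (limma adjusted p of 0.0505 and 0.0576). They became 1 without IB replicates 1 and 12, where DYNC1I2 was lost. They also became 1 when members named only by the study's list were left out, which removes PDCD6IP itself. The cause of the changes other than those by the threshold and by this removal was not tested. The 52 probe sets called in all became 145 with the block for series, 9 in the series of 16, 229 in the series of 12, 96 with array weights and 34 at a threshold of 0.05. Leaving out each piglet in turn gave 1 to 2 members higher in DU×IB, 1 to 3 higher in IB, 34 to 66 probe sets in all (34 without DU×IB replicate 7) and a median difference of the members from -0.07 to 0.004. With the block for series it gave 2 to 3 and 2 to 4 members. DYNC1LI2 passed the threshold in 28 of these 28 fits without that block, DYNC1I2 in 26 (adjusted p up to 0.103, without DU×IB replicate 7) and PDCD6IP in 23 (up to 0.12, without DU×IB replicate 5), and all 3 and COPZ2 did in 28 with it. With the block for series, equal array medians left the counts of members at 2 and 3, and quantile normalization gave 2 and 4, adding the first probe set of VPS26A (-0.47, limma adjusted p of 0.0938). Without that block, either scaling added SNX10 (0.0845 and 0.0619).

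The 39 named members that were not called stayed uncalled under the alternatives without the series block and with that block alone, except the second probe set of COPS2 in the series of 12, and 26 of them changed sign under some alternative, with differences of up to 0.32 in size. The replicate number as a block gave 145 probe sets in all, with 2 members above IB and 3 below it, SNX10 added. The numbers do not pair the piglets: same-numbered piglets correlated at 0.02 to 0.73 in their deviations from the group means, over 0.1 in 12 of 14 pairs, all within a series, but at -0.33 to 0.54 once the series was taken out, over 0.1 in 2 of 14, and 2 piglets correlated best with their own number.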
